A study of Homo sapiens with 6 samples.

Results

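Ribosome footprints on the enzymes that make and limit the deoxynucleoside triphosphates (dNTPs), the building blocks of DNA, were compared between RKO cells carrying a short hairpin RNA against TRMT6 (shTRMT6, 3 libraries) and RKO cells carrying a control hairpin (shControl, 3 libraries). RKO is a human colorectal cancer cell line, and both groups share this background. TRMT6 is a subunit of the enzyme that methylates an adenosine in the T loop of cytosolic tRNAs to m1A. The 9 enzymes were chosen by gene symbol, with earlier results of these data known, so their counts are no independent test. They are RRM1, RRM2, TYMS, DUT, DTYMK, TK1, DCK, DCTPP1 and SAMHD1, and 9 of 9 were found among the 20289 genes of the deposited table. The labels give neither the sequence of the hairpins nor whether the cells were a pool or a clone, or whether its 3 libraries were grown as separate cultures; the p-values therefore describe the spread between libraries, which may be technical.

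Proliferating cells make dNTPs mostly in S phase. Ribonucleotide reductase, built of the large subunit RRM1 and the small subunit RRM2, turns ribonucleotides into deoxyribonucleotides, and thymidylate synthase (TYMS) makes dTMP from the dUMP that the dUTPase DUT supplies while it keeps uracil out of DNA. Thymidylate kinase (DTYMK) passes dTMP on towards dTTP, thymidine kinase (TK1) and deoxycytidine kinase (DCK) recover nucleosides, and DCTPP1 and SAMHD1 hydrolyse dNTPs. Many of these genes are known targets of the E2F transcription factors, which act at the entry into S phase.

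Promoter windows are shown for the 7 members that hold an E2F motif (DUT, TYMS and DCK) or at least 2 CCAAT boxes, the sequence that NF-Y binds (RRM2, TK1, DTYMK and SAMHD1). They are RefSeq sequences of build GRCh38.p14, from 250 bases before to 50 bases after an annotated transcript start, and all 9 members matched, with 14 windows in all. Both strands were searched for TTTCCCGC, TTTGGCGC or TTTCGCGC (E2F) and for CCAAT; the capitals mark these matches. The windows are chr15:48331947-48332246 (DUT, plus strand, 1 of 4 starts), chr18:657403-657702 (TYMS, plus strand), chr4:70993399-70993698 (DCK, plus strand), chr2:10122489-10122788 (RRM2, plus strand, 1 of 2 starts), chr17:78187003-78187302 (TK1, minus strand, 1 of 2 starts), chr2:241686766-241687065 (DTYMK, minus strand) and chr20:36951659-36951958 (SAMHD1, minus strand).
DUT: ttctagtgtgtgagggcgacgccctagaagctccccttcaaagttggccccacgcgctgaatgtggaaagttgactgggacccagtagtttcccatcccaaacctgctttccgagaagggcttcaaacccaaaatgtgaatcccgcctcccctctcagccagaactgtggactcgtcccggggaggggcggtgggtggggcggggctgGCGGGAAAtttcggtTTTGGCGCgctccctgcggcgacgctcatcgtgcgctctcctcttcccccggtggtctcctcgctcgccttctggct
TYMS: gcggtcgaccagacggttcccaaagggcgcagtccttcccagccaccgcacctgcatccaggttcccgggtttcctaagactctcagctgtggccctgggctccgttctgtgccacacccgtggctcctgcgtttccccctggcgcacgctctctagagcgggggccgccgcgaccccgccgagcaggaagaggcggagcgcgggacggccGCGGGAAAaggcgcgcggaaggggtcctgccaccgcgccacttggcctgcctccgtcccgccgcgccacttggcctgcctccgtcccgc
DCK: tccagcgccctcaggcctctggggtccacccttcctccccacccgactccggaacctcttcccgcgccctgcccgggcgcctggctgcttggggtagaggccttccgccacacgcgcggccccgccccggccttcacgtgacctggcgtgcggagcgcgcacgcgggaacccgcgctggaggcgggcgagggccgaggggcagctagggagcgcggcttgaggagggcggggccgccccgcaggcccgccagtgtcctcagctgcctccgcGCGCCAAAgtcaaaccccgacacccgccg
RRM2: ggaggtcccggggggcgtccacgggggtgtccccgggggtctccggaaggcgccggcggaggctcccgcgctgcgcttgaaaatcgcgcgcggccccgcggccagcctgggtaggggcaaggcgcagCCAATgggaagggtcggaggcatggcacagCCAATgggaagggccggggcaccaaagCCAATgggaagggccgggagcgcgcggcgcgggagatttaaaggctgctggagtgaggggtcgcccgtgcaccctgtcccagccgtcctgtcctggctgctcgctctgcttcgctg
TK1: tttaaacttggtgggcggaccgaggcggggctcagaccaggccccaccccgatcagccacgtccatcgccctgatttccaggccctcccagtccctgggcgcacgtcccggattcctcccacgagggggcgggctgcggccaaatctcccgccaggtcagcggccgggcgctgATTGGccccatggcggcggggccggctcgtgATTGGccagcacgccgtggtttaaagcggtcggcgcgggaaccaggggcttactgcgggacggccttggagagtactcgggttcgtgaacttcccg
DTYMK: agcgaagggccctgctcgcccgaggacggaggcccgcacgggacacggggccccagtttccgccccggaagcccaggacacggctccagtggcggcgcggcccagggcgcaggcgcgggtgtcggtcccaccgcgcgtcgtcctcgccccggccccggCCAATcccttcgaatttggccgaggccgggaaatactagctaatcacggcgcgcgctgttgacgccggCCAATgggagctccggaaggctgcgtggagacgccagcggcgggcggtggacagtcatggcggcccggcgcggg
SAMHD1: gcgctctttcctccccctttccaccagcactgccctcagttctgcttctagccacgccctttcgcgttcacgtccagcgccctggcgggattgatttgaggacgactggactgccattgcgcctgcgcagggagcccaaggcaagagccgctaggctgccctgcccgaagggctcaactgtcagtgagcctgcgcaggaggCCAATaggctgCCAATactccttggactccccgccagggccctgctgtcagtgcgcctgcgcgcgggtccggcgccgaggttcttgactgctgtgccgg
An E2F motif lay in 3 of the 9 members, DUT, TYMS and DCK, against 3.3% of the 27305 genes with a window. In DUT the matches begin 42 and 27 bases before the start, in TYMS 39 bases before it and in DCK 21 bases after it. CCAAT lay in 5 of 9 members, RRM1, RRM2, TK1, DTYMK and SAMHD1, against 39.7% of genes. TTTGAA (CHR) and GGGCGG (GC box) were also searched on both strands and are not marked. TTTGAA lay in 2 of 9 members, DUT and RRM1, against 18.2% of genes, and GGGCGG in 7 of 9 against 48.3%. A match is a description of letters, no promoter activity was measured here, and genes with several starts had more windows to match.

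Values are FPKM, fragments per kilobase of gene model scaled to the reads of the library, as deposited, and level here means FPKM. Footprints count both how much mRNA there is and how densely ribosomes sit on it, which cannot be told apart here, and in a bulk sample fewer cells in S phase and less RNA per cell cannot be told apart. Steps between low values gave estimates of 2574000 to 4082000 reads on coding sequence per shTRMT6 library and 2604000 to 3925000 per shControl library. TRMT6 itself had 20.7, 21.9 and 24.1 FPKM in shTRMT6 against 57.6, 58.4 and 95.3 FPKM in shControl (log2 fold change -1.58, limma adjusted p = 0.00301). Of 8 epithelial or line markers KRT8, KRT18, EPCAM, CDX2 and VIM were above 0 in every library, CDH1 and VIL1 were at 0 in all, and KRT19 was above 0 in 1. Of 10 markers of other cell types only CD68, a lysosomal gene, was above 2.12 FPKM in any library, at 575 to 754 FPKM in shTRMT6 and 559 to 740 FPKM in shControl. Library shControl replicate 3 stood apart, with Pearson's r of log levels across genes of 0.936 and 0.944 with the other shControl libraries against 0.964 between those. Calls of the 9 enzymes that turn on this library are given with and without it.

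Of the 9 enzymes 6 had lower footprint levels in shTRMT6 and 0 higher, against 9.04% of the 11566 tested genes lower and 26.5% higher (limma on log2(FPKM + 1), Benjamini-Hochberg adjusted p under 0.05 over all tested genes). At an unadjusted p under 0.05 the counts were the same 6 lower and 0 higher, against 1418 and 3975 of the 11566 tested genes. DUT, TYMS, TK1, RRM2, DCK and DCTPP1 fell, and in each of them every shTRMT6 library lay below every shControl library (14.3% of tested genes were separated in this direction and 37% in the other). The other 3, RRM1, DTYMK and SAMHD1, overlapped between the groups and did not pass. The median log2 fold change was -1.09 over the 9 enzymes and 0.39 over all tested genes. With each library scaled to its median the shift of all tested genes was -0.07, 7 enzymes were lower and 0 higher, against 19.7% and 13.2% of tested genes, and the median of the 9 was -1.58. Quantile normalization gave the same counts of 7 and 0 against 14.7% and 13.9%, and the replicate block 6 and 0 against 9.21% and 27.2%. Leaving out shControl replicate 3 gave 7 lower and 1 higher, against 12.3% and 28.3%.

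**Figure D1:**
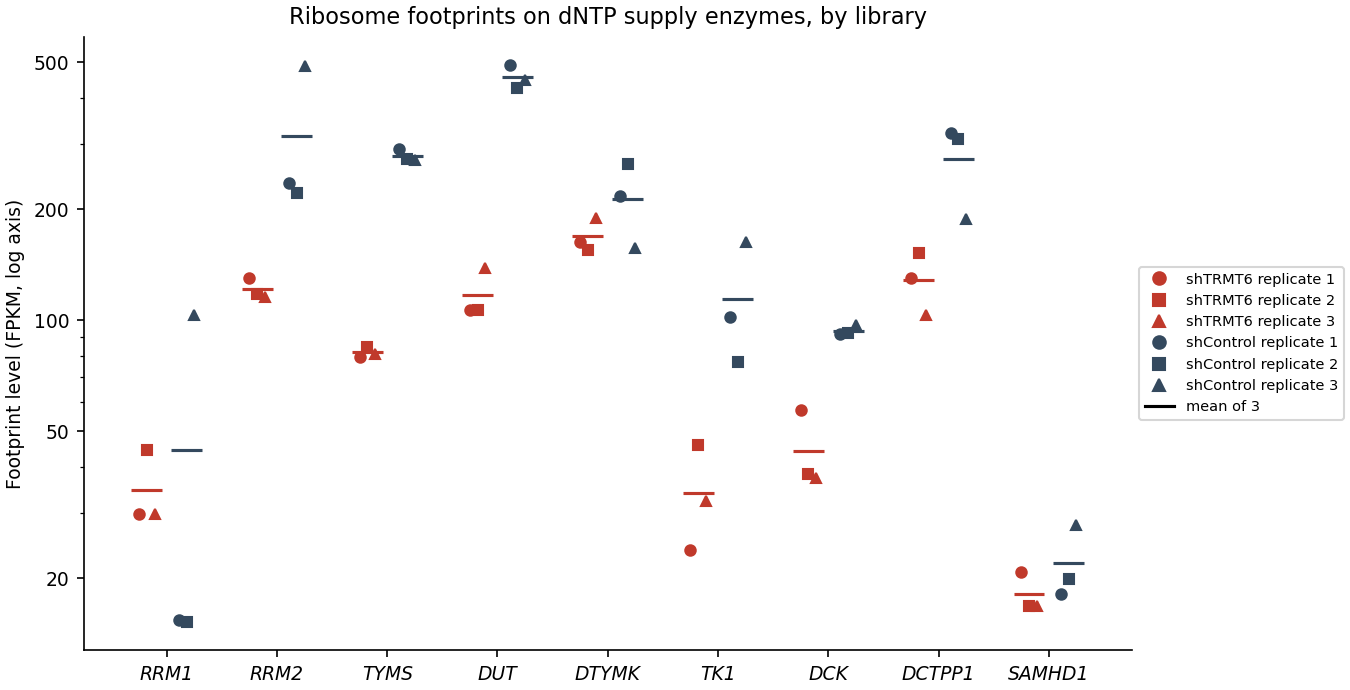
Footprint level in FPKM (log axis) of the 9 enzymes in each library, shTRMT6 left in red and shControl right in dark blue; symbols mark the replicate number and bars the mean of 3. Red lies wholly below blue for RRM2, TYMS, DUT, TK1, DCK and DCTPP1, and RRM1 has 1 blue triangle, shControl replicate 3 at 103 FPKM, far above the other blue points.

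Of the subunits of ribonucleotide reductase RRM2 passed the test and RRM1 did not. RRM2, the S-phase small subunit that carries the radical, had 131, 118 and 115 FPKM in shTRMT6 libraries 1 to 3 against 235, 222 and 488 FPKM in shControl libraries 1 to 3. The groups did not overlap, and the widest spread came from the high value of shControl replicate 3. RRM2 fell 2.60-fold (121 ± 8.15 in shTRMT6, 315 ± 150 FPKM in shControl, SD, n = 3 each; log2 fold change -1.27, SE 0.30, limma adjusted p = 0.0111). Without shControl replicate 3 the log2 fold change was -0.91 (adjusted p = 0.00405), so the call did not rest on that library.

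RRM1, the catalytic large subunit, had 29.9, 44.4 and 30.0 FPKM in shTRMT6 against 15.4, 15.2 and 103 FPKM in shControl. The shTRMT6 values lay above shControl replicates 1 and 2 and below shControl replicate 3. With all 6 libraries RRM1 did not pass (log2 fold change 0.22, SE 0.63, 95% interval -1.19 to 1.62, limma adjusted p = 0.809). Without shControl replicate 3 it was called higher, with a log2 fold change of 1.11 (limma adjusted p = 0.0130), whereas without shControl replicate 1 or 2 it was -0.23 in either case (adjusted p = 0.821 and 0.798). The sign also turned with the scaling, at -0.26 with median scaling, -0.24 with quantile normalization and -0.45 with level and length trends removed, none of which passed. The level in shControl replicate 3 rests on an estimated 962 reads, against 120 and 94.1 reads in shControl replicates 1 and 2. On log2(FPKM + 1), RRM1 was 2.68 higher in shControl replicate 3 than in the mean of the other shControl libraries, and 99.9% of tested genes had that difference at or below this size; the median over all tested genes was -0.16.

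RRM2B, a second small subunit that p53 induces and that serves cells outside S phase, is no member of the set but completes the enzyme. It had 183, 142 and 182 FPKM in shTRMT6 against 62.2, 88.9 and 82.4 FPKM in shControl, with no overlap. RRM2B rose (mean 169 ± 23.4 in shTRMT6 and 77.8 ± 13.9 FPKM in shControl, SD, n = 3 each; limma log2 fold change 1.11, SE 0.23, adjusted p = 0.00669). Of all tested genes 78.2% had a log2 fold change at or below that of RRM2B, and 26.5% were called higher. With median scaling the log2 fold change of RRM2B was 0.62 and it did not pass (adjusted p = 0.0574). A ratio of FPKM within a library does not change when the whole library is multiplied by a common factor, as in median scaling. It can change with quantile normalization or removal of trends by level and length, and the ratios were not computed under these. The ratio of RRM2B to RRM2 was 1.40, 1.2 and 1.58 in shTRMT6, where RRM2B had the higher level in every library, against 0.264, 0.401 and 0.169 in shControl, where RRM2 had. On the log2 scale of FPKM + 1 this ratio was 2.39 higher in shTRMT6 (exact permutation, two-sided, p = 0.1, which is the lowest value that 6 libraries permit; 0.18 adjusted over the 9 ratios compared). The ratio of RRM2 to RRM1 was 4.37, 2.65 and 3.85 in shTRMT6 against 15.3, 14.6 and 4.73 in shControl, a log2 difference of -1.49 (exact permutation p = 0.1, adjusted 0.18). Its lowest shControl value, again replicate 3, lay just above the highest shTRMT6 value.

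**Figure D2:**
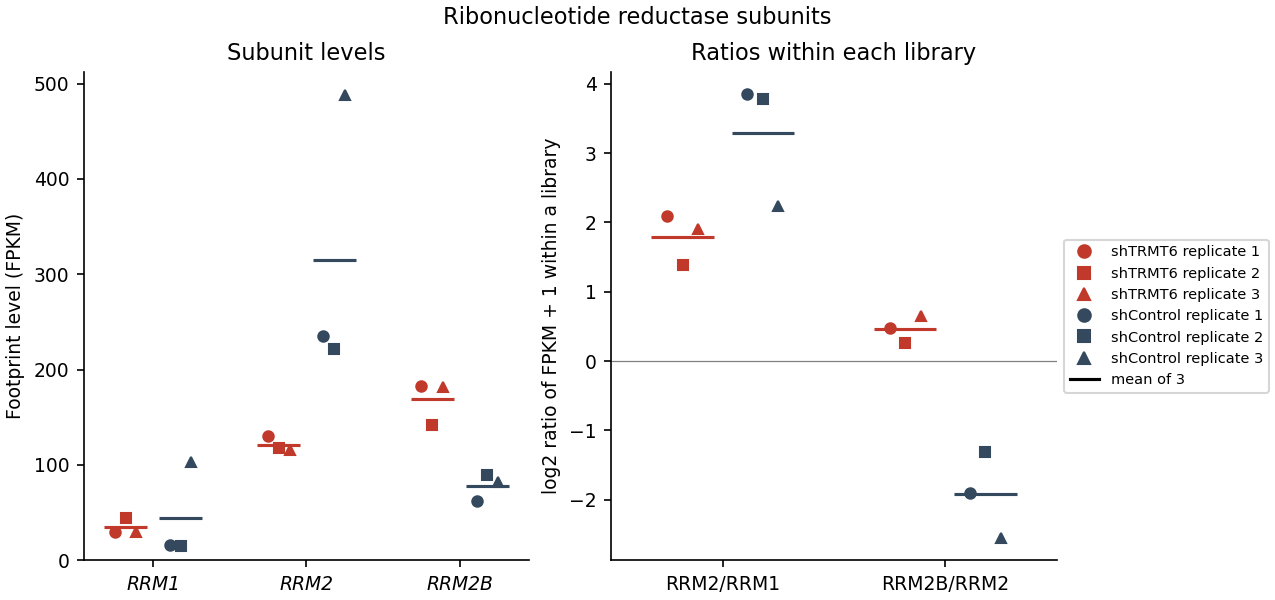
Left, FPKM of RRM1, RRM2 and RRM2B in each library; right, the log2 ratio of FPKM + 1 of subunit pairs within each library, shTRMT6 in red to the left of shControl in blue, bars at the mean of 3. The RRM2B/RRM2 ratio is above 0 in the 3 shTRMT6 libraries and below 0 in the 3 shControl libraries, while RRM2/RRM1 of shControl replicate 3 sits close to the red points.

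Of the enzymes of thymidylate synthesis DUT and TYMS fell and DTYMK did not pass. DUT, which hydrolyses dUTP to dUMP, had 107, 107 and 139 FPKM in shTRMT6 against 493, 427 and 448 FPKM in shControl. TYMS, the target of 5-fluorouracil, had 79.6, 84.8 and 81.1 FPKM in shTRMT6 against 291, 273 and 271 FPKM in shControl. Within each group the 3 libraries of TYMS lay close together, and for both genes the highest shTRMT6 value was far below the lowest shControl value. DUT fell 3.88-fold (log2 fold change -1.96, SE 0.21, limma adjusted p = 0.00073) and TYMS 3.40-fold (-1.75, SE 0.19, adjusted p = 0.000751). Only 0.476% of tested genes had a log2 fold change at or below that of DUT, and 0.795% at or below that of TYMS. Across the 6 fits that left out 1 library, DUT ranged from -2.08 to -1.89 and TYMS from -1.78 to -1.72, both called in each.

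DTYMK, the kinase that follows, had 163, 155 and 189 FPKM in shTRMT6 against 217, 265 and 157 FPKM in shControl. The groups overlapped through shControl replicate 3, which lay below 2 of the shTRMT6 libraries. DTYMK did not pass (log2 fold change -0.30, 95% interval -0.84 to 0.24, limma adjusted p = 0.348). It was called lower without shControl replicate 3 (-0.51, adjusted p = 0.0460) and with median scaling (-0.80, adjusted p = 0.0250). The ratio of DTYMK to TYMS was 2.05, 1.82 and 2.33 in shTRMT6 and 0.746, 0.972 and 0.579 in shControl, so that DTYMK had the higher level per length in every shTRMT6 library and TYMS in every shControl library (log2 difference 1.45, exact permutation p = 0.1, adjusted 0.18).

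The ratio of DUT to TYMS overlapped between the groups, at 1.34, 1.26 and 1.71 in shTRMT6 and 1.69, 1.56 and 1.65 in shControl (log2 difference -0.20, exact permutation p = 0.4, adjusted 0.6).

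Both salvage kinases were lower. TK1, which phosphorylates thymidine in S phase, had 23.8, 46.1 and 32.5 FPKM in shTRMT6 against 102, 77.0 and 163 FPKM in shControl. It fell 3.34-fold (log2 fold change -1.69, SE 0.34, limma adjusted p = 0.00556), and 0.882% of tested genes lay at or below this value. The lowest estimate for TK1 was 52.8 reads, in shTRMT6 replicate 1. DCK, which starts the salvage of deoxycytidine and activates drugs such as cytarabine, had 57.1, 38.4 and 37.5 FPKM in shTRMT6 against 91.6, 92.5 and 97.3 FPKM in shControl. The shControl values of DCK lay close together and above all 3 shTRMT6 values. DCK fell 2.12-fold (log2 fold change -1.09, SE 0.24, adjusted p = 0.00828). The ratio of TYMS to TK1, synthesis against salvage of thymidylate, overlapped between the groups (3.34, 1.84 and 2.50 in shTRMT6; 2.86, 3.54 and 1.66 in shControl; exact permutation p = 0.9, adjusted 0.9), as did the ratio of DCK to TK1 (p = 0.5, adjusted 0.643).

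Of the hydrolases DCTPP1 passed the test and SAMHD1 did not; the difference between them was not tested. DCTPP1, which degrades dCTP and modified cytosine nucleotides, had 130, 153 and 103 FPKM in shTRMT6 against 321, 309 and 188 FPKM in shControl. It fell 2.12-fold (log2 fold change -1.06, SE 0.27, limma adjusted p = 0.0146), with shControl replicate 3 nearest to the shTRMT6 libraries. This call was lost without shTRMT6 replicate 3 (adjusted p = 0.0651) and without shControl replicate 1 (adjusted p = 0.0557). The ratio of DCTPP1 to DUT was 1.22, 1.43 and 0.744 in shTRMT6 against 0.652, 0.725 and 0.419 in shControl (log2 difference 0.90, exact permutation p = 0.1, adjusted 0.18).

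SAMHD1, the dNTPase that lowers dNTP pools outside S phase and restricts viruses in resting cells, had the lowest mean level of the set in each group. It had 20.8, 16.8 and 16.8 FPKM in shTRMT6 against 18.1, 19.9 and 27.9 FPKM in shControl. In shControl replicates 1 and 2 RRM1 was lower still, at 15.4 and 15.2 FPKM. The groups overlapped and SAMHD1 did not pass (log2 fold change -0.25, 95% interval -0.86 to 0.37, limma adjusted p = 0.511). It was called lower with quantile normalization (-0.83, adjusted p = 0.0475) and once trends by level and coding length were removed (-0.86, adjusted p = 0.0344). The ratio of SAMHD1 to RRM2 was 0.159, 0.142 and 0.146 in shTRMT6 against 0.0771, 0.0896 and 0.0571 in shControl (log2 difference 1.03, exact permutation p = 0.1, adjusted 0.18).

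The sum over the 9 enzymes was nearly equal in the shTRMT6 libraries, at 742, 762 and 744 FPKM, against 1784, 1700.1 and 1944 FPKM in shControl. It was 2.41-fold lower in shTRMT6 (749.5 ± 11.3 and 1809 ± 124 FPKM, SD, n = 3 each; exact permutation, two-sided, p = 0.1). As a share of the FPKM sum it was 0.0481% ± 0.000614 in shTRMT6 and 0.111% ± 0.0193 in shControl. The order of mean levels also differed. In shTRMT6 DTYMK came first at 169 FPKM, above DCTPP1, RRM2 and DUT, whose ranges overlapped, then TYMS, then DCK, RRM1 and TK1 with overlapping ranges, and SAMHD1 last. In shControl DUT came first at 456 FPKM, followed by RRM2, TYMS, DCTPP1, DTYMK, TK1, DCK, RRM1 and SAMHD1, and the ranges of all neighbours in this order overlapped. RRM1 lay below SAMHD1 in shControl replicates 1 and 2 and above it in shControl replicate 3.

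Across the table the log2 fold change was larger at longer coding length, with a median of -0.12 in the shortest of 5 length bins (median 543 nt in GENCODE 29) and 0.83 in the longest (median 3450 nt). The 6 enzymes that fell have coding sequences of 510 nt (DCTPP1), 756 nt (DUT), 801 nt (TK1), 939 nt (TYMS), 951 nt (DCK) and 1347 nt (RRM2). Of the others DTYMK is short, at 636 nt, while SAMHD1 and RRM1 are the longest, at 1878 and 2376 nt. Removing the trends by level and length in each library left 7 enzymes lower, SAMHD1 added, and 0 higher, against 13.6% and 13.4% of genes; DUT, TYMS, TK1, RRM2, DCK and DCTPP1 were called at log2 fold changes of -1.68, -1.65, -1.79, -1.31, -1.24 and -0.80. GC content at position 3 of codons spanned 39.9% (SAMHD1) to 74.9% (TK1) and showed no common value among those that fell, which ran from 41.3% (DCK) to 74.9%.

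**Figure D3:**
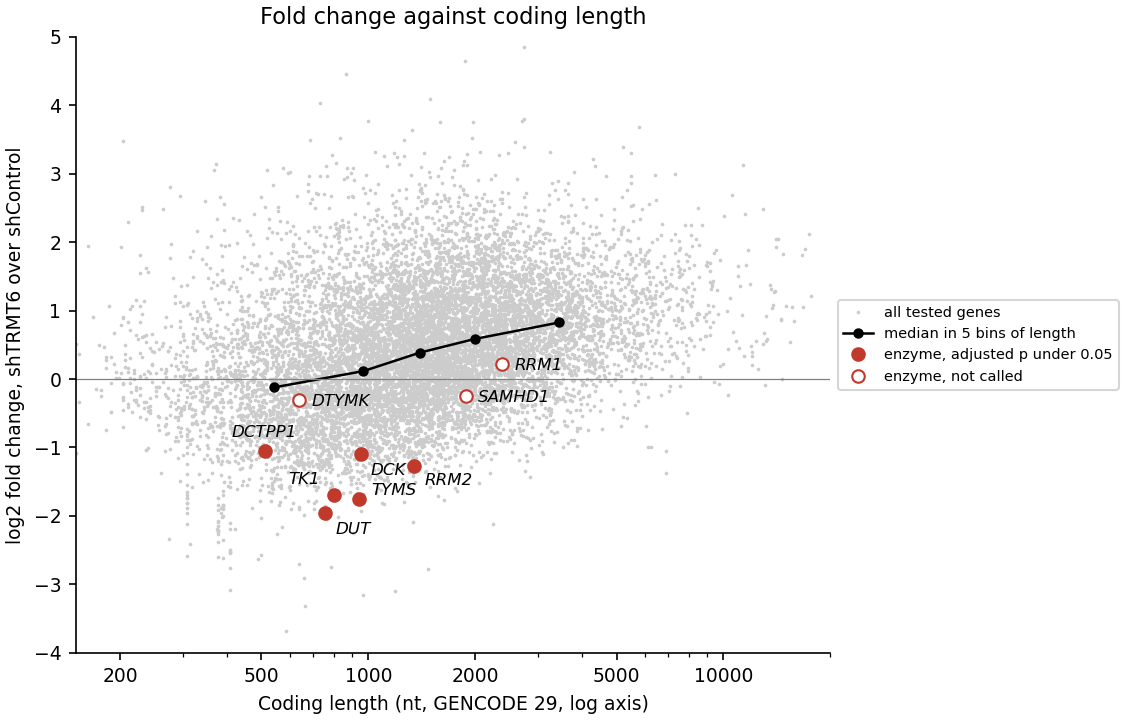
Log2 fold change (shTRMT6 over shControl) against coding length in nt (log axis) for all tested genes (grey) and the 9 enzymes (red, open where not called); the black line joins the medians of 5 length bins. The 9 enzymes lie below this line, DTYMK and RRM1 closest to it; 18 genes fall outside the axes.

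**Figure D4:**
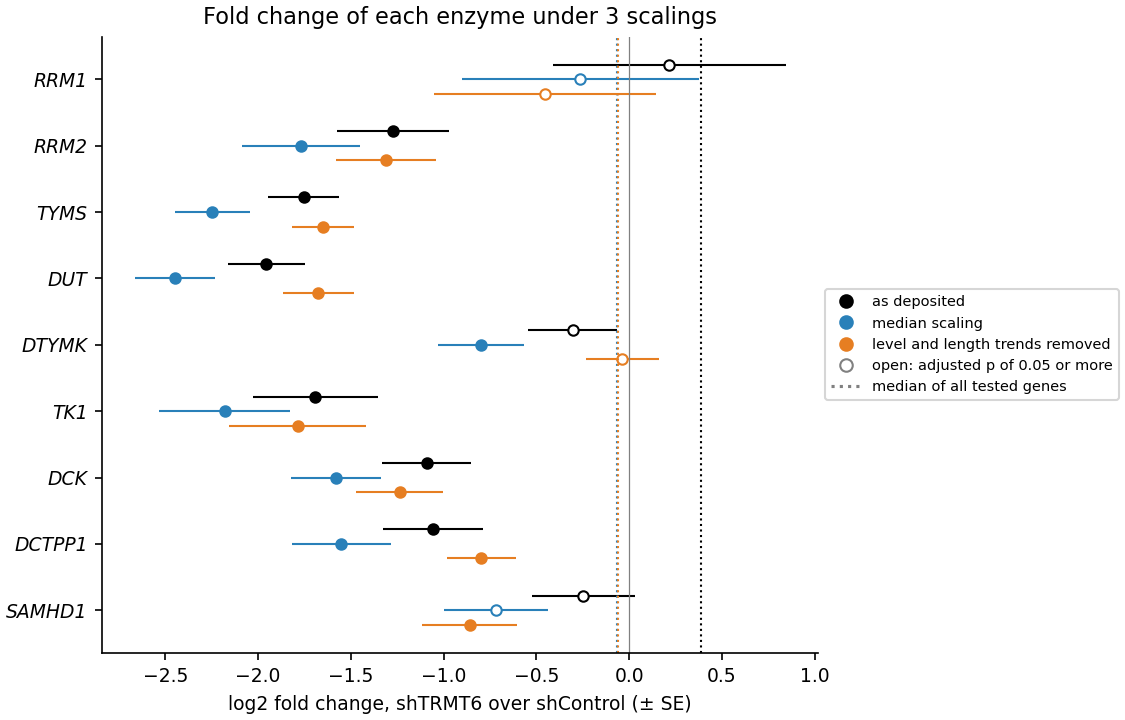
Log2 fold change (shTRMT6 over shControl) with its SE for each enzyme, as deposited, with median scaling and after removal of the trends by level and length; open points did not pass and dotted lines mark the median of all tested genes. RRM2, TYMS, DUT, TK1, DCK and DCTPP1 are filled under all 3, DTYMK under median scaling and SAMHD1 with trends removed.

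The members lie on 8 chromosomes in GENCODE 29 (GRCh38), all protein-coding. DUT (ENSG00000128951) is on chromosome 15 from 48331011 to 48343373, TYMS (ENSG00000176890) on 18 from 657604 to 673578, RRM1 (ENSG00000167325) on 11 from 4094707 to 4138876 and DCK (ENSG00000156136) on 4 from 70992538 to 71030914, on the plus strand. RRM2 (ENSG00000171848) is on chromosome 2 from 10120698 to 10131419, plus strand, and DTYMK (ENSG00000168393) on the same chromosome from 241675742 to 241686991, minus strand. TK1 (ENSG00000167900) is on chromosome 17 from 78174075 to 78187233, DCTPP1 (ENSG00000179958) on 16 from 30423619 to 30430075 and SAMHD1 (ENSG00000101347) on 20 from 36889773 to 36951901, on the minus strand. Exons of other genes overlap coding exons of 7 of the 9 members, all but TK1 and DTYMK, and how such reads were divided is not given in the sources used here. The partners are AC023355.1 for DUT, TYMSOS and ENOSF1 for TYMS, RRM1-AS1 for RRM1, ZNF771 for DCTPP1 and TLDC2 for SAMHD1, on the opposite strand, and AC007240.1 for RRM2 and MOB1B for DCK, on the same strand. ENOSF1 rose, at 119, 73.3 and 90.3 FPKM in shTRMT6 against 28.6, 45.2 and 33.5 FPKM in shControl (log2 fold change 1.37, limma adjusted p = 0.00564), the opposite direction to TYMS. MOB1B (0.27, adjusted p = 0.458) and ZNF771 (0.58, adjusted p = 0.342) overlapped between the groups and did not pass, and TLDC2 was listed at 0 in 5 of 6 libraries. Named pseudogenes that could share reads number 8 for DUT, 3 for RRM2 and 2 for TYMS.

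The genes most like each called member, by the smallest root mean square difference of centred log2(FPKM + 1) over the 6 libraries among 7094 tested genes with a mean of at least 20 FPKM, came mostly from other pathways. For DUT they included the GTPase ARL1 (difference 0.15) and the actin-severing factor DSTN (0.15). For TYMS they were the ribosomal protein genes MRPL16 (0.07) and RPS3 (0.08), and ARL1 (0.10). For RRM2, which is high in shControl replicate 3, they were VDAC3 (0.08), BLVRA (0.09) and OLA1 (0.09), and for TK1 TAGLN (0.15), AIMP2 (0.20) and the histone acetyltransferase HAT1 (0.22). For DCTPP1, which is low in that library, they were SLC16A3 (0.04), EIF4EBP1 (0.08) and MRPL54 (0.09), and for DCK APOO (0.09), MRPL13 (0.10) and OCIAD1 (0.10).

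Of 20 tested enzymes among 21 other genes of deoxynucleotide synthesis and salvage, 5 were lower and 3 higher, with a median log2 fold change of -0.09. Over all tested genes 9.04% were lower and 26.5% higher. NME1, a nucleoside diphosphate kinase that makes triphosphates, had 691, 768 and 633 FPKM in shTRMT6 against 2050, 1807 and 1847 FPKM in shControl and fell (log2 fold change -1.45, limma adjusted p = 0.00124). NME1 and NME2 are similar in sequence, so reads may be shared between them, which would touch the values of both. NME2 (-0.89) and the UMP/CMP kinase CMPK1 (-0.71) passed with limma adjusted p-values of 0.0158 and 0.0223, but neither call was stable. NME2 did not pass without shTRMT6 replicate 1 or 3 or shControl replicate 1 or 2 (adjusted p up to 0.0767), with quantile normalization (0.112) or with trends removed (0.0839). CMPK1 did not pass without any 1 shTRMT6 library or shControl replicate 1 (up to 0.0942), or with trends removed (0.0759). GUK1, the guanylate kinase, rose, at 184, 191 and 188 FPKM in shTRMT6 against 54.2, 69.3 and 20.3 FPKM in shControl (2.12, adjusted p = 0.00419), as did ADA, adenosine deaminase, at 43.9, 75.1 and 51.7 FPKM against 18.7, 21.8 and 16.5 FPKM in shControl (1.51, adjusted p = 0.00407). RRM2B is the third gene that rose. Leaving out 1 library at a time gave 2 to 6 lower and 3 to 4 higher; removal of the trends gave 3 lower and 5 higher, against 13.6% and 13.4% of all genes.

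Of 12 other nucleotide hydrolases and enzymes that clean the pool, 3 were lower and 2 higher, against 9.04% and 26.5% of all tested genes (median log2 fold change -0.19). NUDT1, which removes oxidised purine dNTPs, had 30.6, 47.1 and 28.8 FPKM in shTRMT6 against 143, 105 and 81.2 FPKM in shControl (-1.60, limma adjusted p = 0.00400). NUDT5, which acts on ADP-ribose (-1.38, adjusted p = 0.00449), and ITPA, which removes inosine triphosphates (-1.29, adjusted p = 0.00295), were also lower. All 3 kept their calls without any 1 library and under the 4 other scalings. The nucleotidases NT5E, at the cell surface (1.80, adjusted p = 0.00330), and NT5M, in mitochondria (2.22, adjusted p = 0.0190), rose. NT5M is a low gene, at 6.56, 13.1 and 5.85 FPKM in shTRMT6 against 0, 4.24 and 0.37 FPKM in shControl, and lost its call without shTRMT6 replicate 2, shControl replicate 1 or shControl replicate 3 (adjusted p up to 0.0745), and with quantile normalization (0.0782). With median scaling 6 of the 12 were lower and 2 higher, against 19.7% and 13.2% of all tested genes.

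The folate cycle that feeds TYMS had 2 of 11 genes lower and 1 higher, against 9.04% and 26.5% of all tested genes (median log2 fold change -0.59). The folate hydrolase GGH fell, at 86.3, 93.2 and 111 FPKM in shTRMT6 against 238, 228 and 176 FPKM in shControl (-1.13, limma adjusted p = 0.00523). With median scaling 6 of the 11 were lower and 0 higher in limma, against 19.7% and 13.2% of all tested genes. At an unadjusted p under 0.05 the counts with median scaling were 7 and 1, against 2921 and 2210 of 11566 tested genes. In 4 of the 11 genes shControl replicate 3 was more than 1.5 times both other shControl libraries, against 13.7% of all tested genes. Leaving out 1 library at a time gave 2 to 3 lower and 0 to 2 higher.

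De novo synthesis of the ribonucleotide precursors gave few stable calls. Of 5 pyrimidine genes 0 were lower and 1 higher in limma, against 9.04% and 26.5% of all tested genes (median log2 fold change -0.23). The counts were also 0 lower and 1 higher at an unadjusted p under 0.05, against 1418 and 3975 of 11566 tested genes. CTPS1, a CTP synthase, had 131, 141 and 166 FPKM in shTRMT6 against 32.1, 64.9 and 97.1 FPKM in shControl (1.29, limma adjusted p = 0.0214), and it lost the call with median scaling (adjusted p = 0.110), with trends removed (adjusted p = 0.0516), without any 1 shTRMT6 library and without shControl replicate 1 (up to 0.0767). Of 13 purine genes 4 were lower and 1 higher, against 9.04% and 26.5% of all tested genes (median -0.49). Without shControl replicate 3 the counts were also 4 and 1, against 12.3% and 28.3% of all tested genes, but the median was 0.05. PAICS had 161, 120 and 151 FPKM in shTRMT6 against 262, 254 and 480 FPKM in shControl (-1.15, adjusted p = 0.0124), and lost its call without shTRMT6 replicate 2 (adjusted p = 0.0528). PRPS2 (-1.06), GMPS (-1.13) and ADSL (-0.68) lost theirs without any 1 shTRMT6 library, ADSL also without shControl replicate 1 or 2 (adjusted p up to 0.0786, 0.115 and 0.102), and all 3 with libraries scaled to their sum without mitochondrial and histone genes. PFAS rose (1.01, adjusted p = 0.0205) but not with median scaling (0.52, adjusted p = 0.181), quantile normalization (0.0825) or trends removed (0.43), nor without any 1 shTRMT6 library or shControl replicate 1 (up to 0.0703). In 6 of the 13 purine genes shControl replicate 3 was more than 1.5 times both other shControl libraries, and without 1 library the lower count was 0 to 4.

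Among 16 regulators of the S-phase genes 3 were higher and 2 lower, counts near the 26.5% and 9.04% of all tested genes (median log2 fold change 0.34, but -0.14 with median scaling and -0.13 with trends removed). Without shControl replicate 3, 6 were higher and 2 lower, against 28.3% and 12.3% of all tested genes. E2F1, which activates many of the genes described here, had 40.3, 39.1 and 32.1 FPKM in shTRMT6 against 11.7, 19.3 and 11.4 FPKM in shControl (1.37, limma adjusted p = 0.00686). E2F4, mostly a repressor, had 232, 236 and 253 FPKM in shTRMT6 against 110, 117 and 60.9 FPKM in shControl (1.37, adjusted p = 0.00552), and their dimer partner TFDP1 214, 223 and 227 FPKM against 88.1, 129 and 60.4 FPKM in shControl (1.32, adjusted p = 0.00695). All 3 rose under the 4 other scalings and without any 1 library. CDK2 (-0.81, adjusted p = 0.0209) and its partner cyclin A2, CCNA2 (-0.92, adjusted p = 0.0269), fell, but neither passed without shTRMT6 replicate 2 or without shControl replicate 1, nor CDK2 without shTRMT6 replicate 3 or CCNA2 without shTRMT6 replicate 1 (adjusted p up to 0.0789 for CDK2). Both also lost it with libraries scaled to their sum without mitochondrial and histone genes (adjusted p = 0.0640 and 0.0780), and CDK2 with quantile normalization (0.0612).

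**Figure D5:**
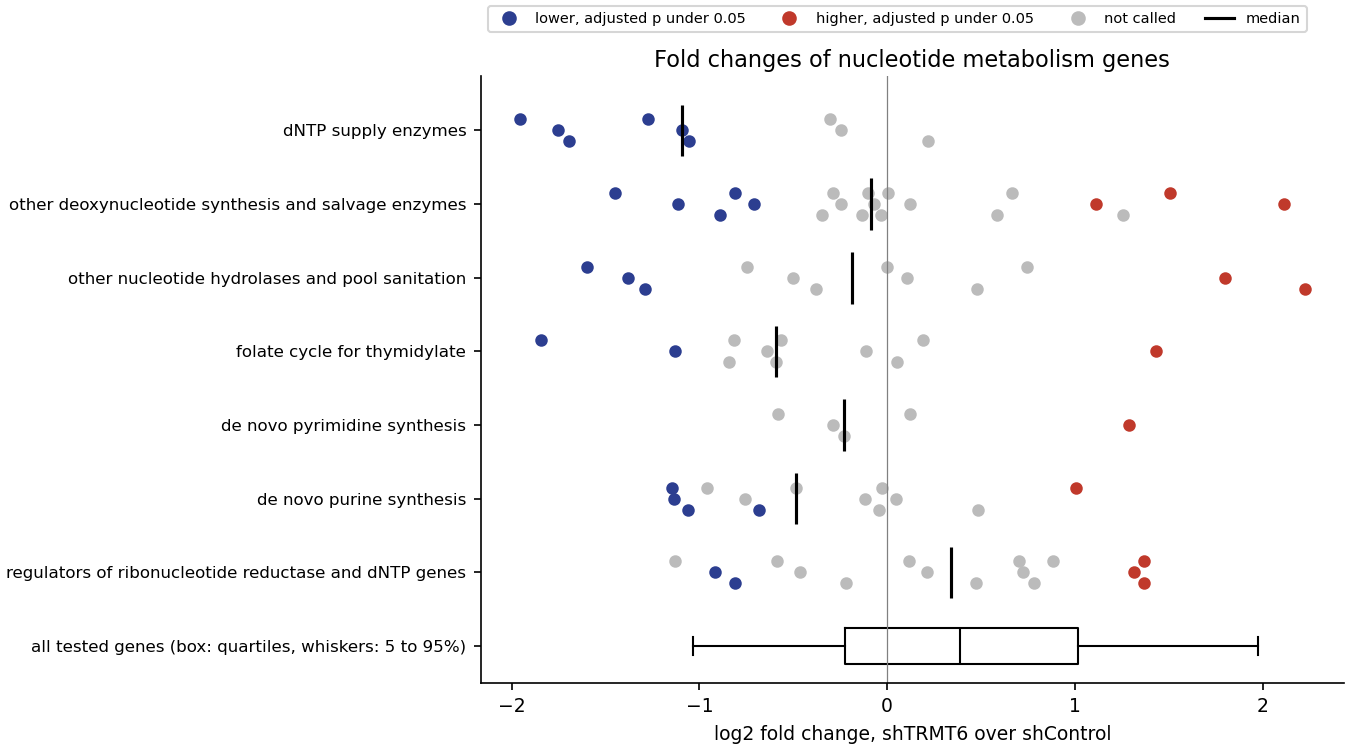
Log2 fold change (shTRMT6 over shControl) of each tested gene in the 7 lists, coloured by call, with the list's median as a black bar and, at the bottom, the spread of all tested genes. With all 6 libraries, the dNTP supply enzymes have a median of -1.09 and the other lists run from -0.59 to 0.34, against 0.39 for all tested genes.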

How the data were processed

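Ribosome footprints of RKO cells were sequenced in 3 shTRMT6 and 3 shControl libraries. The values are FPKM per gene, deposited by the authors, per the file headers. Per the submitters' processing notes, fastp, STAR and RSEM were used; their versions and roles, the genome build, the annotation and use of strand: not given in the sources used here. Columns named SH and NC, numbered 1 to 3, were read as shTRMT6 and shControl replicates, which no label spells out. Batches are not labelled.

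Symbols were matched for 20257 of 20289 identifiers, and coding lengths and GC came from the longest coding transcript in GENCODE 29. Reads per library were estimated from the steps of low values (68.9% to 74.3% of those used lay within 0.1 of a whole read). limma 3.58.1 in R 4.3.3 was fitted to log2(FPKM + 1) with eBayes and trend, for the 11566 genes that reached 1 FPKM in 3 or more libraries, a filter that 9 of 9 enzymes passed; p-values were Benjamini-Hochberg adjusted over these genes at 0.05. This scale understates changes of low genes. Ratios within libraries and sums were tested by exact permutation. On simulated data for shTRMT6 against shControl (11566 genes) the fit recovered 13% of 100 genes changed 2-fold and 74% of 100 changed 4-fold. Only these genes were changed in the simulation, and all were drawn from those above the median level. Recovery below that level was not measured. In the data 1046 genes were called lower and 3069 higher. Fewer changed genes make the adjusted threshold stricter, so these recoveries need not hold for the data. Alternatives were 4 scalings, other filters, 0.1 as pseudocount, a block for the replicate number, and each library left out in turn.

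The enzymes, lists and alternatives were chosen with earlier results of these data known. Named genes are the 9 enzymes, TRMT6, genes of the ratio pairs, at most 4 called genes per list and direction, and the 3 genes most like each called enzyme; the markers are given as checks, and ENOSF1, ZNF771, MOB1B and TLDC2 as overlapping genes, named after their values were seen. Some genes that this rule names are not reported here. Python 3.11.15, pandas 2.3.3 and matplotlib 3.10.9 served for tables and plots.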

Additional observations from a re-analysis of the deposited data

How the results depend on the processing

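Of the 9 enzymes 5 to 7 were called lower under every alternative run. Over all tested genes the lower count ran from 587 of 11566 (without shTRMT6 replicate 1) to 2275 of 11566 (median scaling). The number of enzymes called higher was 0 under each alternative except without shControl replicate 3, where it was 1, RRM1, at a log2 fold change of 1.11. RRM1 changed sign, to a log2 fold change of -0.26 with median scaling, -0.24 with quantile normalization, -0.45 with trends removed, and -0.23 without shControl replicate 1 or without shControl replicate 2, and did not pass in any of these. The cause was not tested. DUT, TYMS, TK1, RRM2 and DCK kept direction and call under all alternatives; DCTPP1 lost its call in 2 fits without 1 library.

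Over all tested genes 1046 were lower and 3069 higher. The lower count was 2275 with median scaling, 1700 with quantile normalization, and 587 to 1428 without 1 library. The higher count was 1522 with median scaling, 1602 with quantile normalization, 1525 with trends removed, and 1828 to 3270 without 1 library. The log2 fold change of the summed enzymes, -1.27, was -1.02 as a mean of logs, -1.77 with median scaling and -1.31 to -1.22 without 1 library.

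With the replicate number as a block (replicate block) 6 enzymes were lower and 0 higher, and 1065 and 3146 genes in all. Same-numbered libraries had correlations of deviations from the group mean of 0.012, 0.0134 and 0.102, within the range of -0.143 to 0.127 for differently numbered libraries. These correlations cannot settle whether equal numbers mark pairs. TK1 had the lowest estimate of reads in 1 library, 52.8, and SAMHD1 81.4 to 205 over the 6 libraries. Intervals cover the spread between these libraries alone.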
